A study of Mus musculus with 6 samples.

Results

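The brush border disaccharidases are the enzymes on the apical membrane of small-intestinal enterocytes that split dietary disaccharides into the single sugars that can be absorbed. The 4 genes described are Lct (lactase), Sis (sucrase-isomaltase), Mgam (maltase-glucoamylase) and Treh (trehalase), taken by gene symbol from the 23390 genes of the deposited count table. All 4 were in the table, and all 4 were among the 13740 genes that passed the filter on low counts. The RNA came from epithelial cells of the small intestine of C57BL/6 mice that had been sorted as viable, CD45-negative and EpCAM-positive. There were 3 libraries from Vil.Cre Maf.flox mice, whose Cre, under the villin promoter, deletes floxed Maf throughout the intestinal epithelium, and 3 from Maf.flox mice, which carry the floxed allele without Cre. No group with Cre and an intact Maf was analysed, so effects of Cre and of the loss of Maf cannot be told apart. Age is not given in the labels, nor do they say whether libraries stem from different mice, so p-values measure the spread between libraries, which may in part be technical.

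Lactase cleaves lactose into glucose and galactose. It is the sugar-splitting enzyme of the suckling period, and its mRNA normally declines around weaning in rodents, when sucrase-isomaltase and trehalase are turned on. Sucrase-isomaltase and maltase-glucoamylase are related alpha-glucosidases that digest sucrose and the products of starch, and trehalase splits trehalose, a sugar of fungi and insects. In rodents the promoters of Lct and Sis are known to bind the homeodomain protein CDX2 and factors of the GATA family. The Maf gene encodes the transcription factor c-Maf, which binds DNA through a basic leucine zipper.

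The promoters of Lct, Sis and Mgam are shown because Lct was called lower and the alpha-glucosidase genes Sis and Mgam were not. Each runs from 250 bases before to 50 bases after the annotated start (RefSeq, GRCm38.p6), on the strand of the gene, at chr1:128328269-128328568 (minus strand) for Lct, chr3:72967814-72968113 (minus strand) for Sis and chr6:40628581-40628880 (plus strand) for Mgam. Capitals mark matches, on either strand, to 4 short motifs. The motif of CDX proteins was TTTAT. The letters searched for factors of the GATA family were TGATAA. For HNF4 proteins the core site CAAAGT was searched. The core site of Maf proteins was TGCTGA.
Lct: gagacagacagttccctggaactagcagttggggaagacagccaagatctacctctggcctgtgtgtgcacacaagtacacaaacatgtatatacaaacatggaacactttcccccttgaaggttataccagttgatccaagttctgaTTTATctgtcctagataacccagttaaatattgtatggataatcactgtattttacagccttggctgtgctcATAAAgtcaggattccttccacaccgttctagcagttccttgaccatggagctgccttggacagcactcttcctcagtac
Sis: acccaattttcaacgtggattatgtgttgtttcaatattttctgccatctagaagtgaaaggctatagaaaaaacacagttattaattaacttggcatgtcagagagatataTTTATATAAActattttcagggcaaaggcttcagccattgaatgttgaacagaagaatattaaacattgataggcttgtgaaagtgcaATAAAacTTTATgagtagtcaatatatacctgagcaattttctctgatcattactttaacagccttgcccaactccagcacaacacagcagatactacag
Mgam: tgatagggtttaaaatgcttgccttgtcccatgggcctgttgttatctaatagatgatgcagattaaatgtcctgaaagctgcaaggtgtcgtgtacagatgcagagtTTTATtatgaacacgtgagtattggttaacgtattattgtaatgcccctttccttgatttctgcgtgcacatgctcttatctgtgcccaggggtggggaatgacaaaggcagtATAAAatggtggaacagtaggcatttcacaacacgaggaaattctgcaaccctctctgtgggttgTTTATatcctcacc

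The Lct promoter held 2 CDX matches, at -102 to -98 and at -30 to -26 from the start, and no match to the other 3 motifs. The Sis promoter held 4 CDX matches, of which 2 lie side by side at -138 to -129, and no match to the others. The Mgam promoter held 3 CDX matches and none of the others. These lie at -142 to -138, at -29 to -25 and, past the start, at 37 to 41. The Treh promoter held no CDX match, 2 HNF4 core sites and 1 Maf core site. Such short motifs are common: among 32851 promoter windows of the same length, 40.01% held the CDX motif, 9.05% the motif of the GATA factors, 14.4% the HNF4 core site and 19.5% the Maf core site. A match is a description of the letters in this window and not a measured binding site. Only these exact letters were searched, so a window without a match can still hold a variant of a site. The Lct window, for example, holds AGATAA, which differs by 1 base from the GATA letters searched.

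The 6 libraries held between 17464355 and 24802525 counts. Maf had 16, 1 and 1 counts in the Vil.Cre Maf.flox libraries against 9398, 5615 and 3893 counts in the Maf.flox libraries, in accord with the genotype labels. Xist and Y-linked counts gave 2 male and 1 female libraries in Vil.Cre Maf.flox and 1 male and 2 female libraries in Maf.flox, so sex was not balanced. The cells were epithelial by their markers. The 5 pan-epithelial genes summed to 12972 to 16652 CPM (counts scaled to library size) in Vil.Cre Maf.flox and 13497 to 14645 CPM in Maf.flox, and 7 stromal and endothelial genes summed to less than 1 CPM in every library. Of the 9 leukocyte genes, Ptprc, which encodes CD45, averaged 0.315 CPM in Vil.Cre Maf.flox and 1.14 CPM in Maf.flox, and Cd3e and Cd79a had 7 and 9 counts over all 6 libraries. Their summed level, 1953 to 2860 CPM in Vil.Cre Maf.flox and 1805 to 2052 CPM in Maf.flox, was almost wholly Cd74, which epithelium also makes. The 8 enterocyte genes summed to 5680 to 9049 CPM in Vil.Cre Maf.flox and 8087 to 18955 CPM in Maf.flox, with the lowest value of each group in replicate 3.

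Between the genotypes the question was how epithelial loss of Maf alters disaccharidase mRNA. Lct mRNA fell to 3.45% of its Maf.flox level, while Sis, Mgam and Treh did not pass the test. Lactase made up less than 1% of the disaccharidase mRNA of each Vil.Cre Maf.flox library, nearly all of which came from Sis and Mgam. Of the 4 genes 1 was called lower (an adjusted p below 0.05) and 0 higher. Over all 13740 genes tested, 0.357% were called lower and 0.189% higher, 0.546% in all.

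Lct (ENSMUSG00000026354, GRCm38 chromosome 1, 128284756 to 128328318) lies on the minus strand. Its counts were 283, 248 and 355 in replicates 1, 2 and 3 of Vil.Cre Maf.flox, against 7980, 12073 and 6610 in replicates 1, 2 and 3 of Maf.flox. On the normalised scale these were 14.4, 14.6 and 15.2 CPM in Vil.Cre Maf.flox and 335.5, 628.5 and 313.5 CPM in Maf.flox. The groups did not overlap: the lowest Maf.flox library had 20.6 times the level of the highest Vil.Cre Maf.flox library. Mean levels were 14.7 ± 0.435 CPM in Vil.Cre Maf.flox and 425.8 ± 176 CPM in Maf.flox (SD, n = 3 each), a ratio of means of 29.0-fold lower. The log2 fold change was -4.86 (SE 0.302, 95% interval -5.56 to -4.15), and the adjusted p was 0.00298 (edgeR's quasi-likelihood F test, Benjamini-Hochberg adjustment over all genes).

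Lct had the smallest p of the 13740 genes tested, and the third largest fall among the 49 genes called lower. It was 1 of 2 genes with an adjusted p at or below 0.01 by the same edgeR test. Within each sex, where 1 of the genotypes is a lone library, the mean log2 CPM of Lct differed between Vil.Cre Maf.flox and Maf.flox by -4.54 in males and by -4.87 in females. In RNA from a mixed epithelial sort, fewer lactase-expressing enterocytes and less lactase mRNA per enterocyte cannot be told apart.

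The remaining Lct mRNA differed little between the 3 Vil.Cre Maf.flox libraries. The highest of the 3 Vil.Cre Maf.flox libraries had 1.06 times the level of the lowest, and the coefficient of variation was 2.96%. In Maf.flox the highest library had 2.00 times the level of the lowest, and the coefficient of variation was 41.3%. With 248 to 355 counts per library, the residual Lct signal stood well clear of zero. Counting noise at such counts is larger than the spread seen in Vil.Cre Maf.flox. The closeness of these 3 values therefore does not measure how even the residual expression is.

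Sis (ENSMUSG00000027790, chromosome 3, 72888557 to 72967863, minus strand), whose product is cut into the sucrase and isomaltase subunits, had 1690, 2737 and 1527 CPM in replicates 1, 2 and 3 of Vil.Cre Maf.flox, against 2209, 2945 and 1752 CPM in replicates 1, 2 and 3 of Maf.flox. The groups overlapped, and replicate 2 was the highest and replicate 3 the lowest library in both. Sis averaged 1985 ± 657 CPM in Vil.Cre Maf.flox and 2302 ± 601 CPM in Maf.flox (SD, n = 3 each). Its log2 fold change was -0.21 (SE 0.265, 95% interval -0.82 to 0.39, adjusted p = 0.749 by edgeR's quasi-likelihood test). The interval leaves room for a moderate fall but lies wholly above that of Lct.

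Mgam (ENSMUSG00000068587, chromosome 6, 40628831 to 40769123, plus strand), which trims glucose from the ends of starch fragments, had 1697, 2114 and 1819 CPM in replicates 1, 2 and 3 of Vil.Cre Maf.flox, against 2030, 2440 and 1761 CPM in replicates 1, 2 and 3 of Maf.flox. Its values overlapped between the groups and were the tightest of the 4 genes in Maf.flox, with a coefficient of variation of 11.4% in Vil.Cre Maf.flox and 16.5% in Maf.flox. The log2 fold change was -0.15 (SE 0.165, 95% interval -0.52 to 0.23, adjusted p = 0.723 by edgeR's quasi-likelihood test). Directly beside it lies Mgam2-ps, a transcribed copy annotated as a pseudogene, at 112.5 ± 11.9 CPM in Vil.Cre Maf.flox and 94.3 ± 8.53 CPM in Maf.flox (SD, n = 3 each), with a log2 fold change of 0.25 that did not pass. Reads shared between the copies could be split or dropped by the counting, so the Mgam level is uncertain to that extent.

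Treh (ENSMUSG00000032098, chromosome 9, 44673233 to 44686305, plus strand) encodes an enzyme held on the membrane by a lipid anchor, and it varied most. It had 24.0, 35.4 and 10.7 CPM in replicates 1, 2 and 3 of Vil.Cre Maf.flox, against 96.9, 38.2 and 14.9 CPM in replicates 1, 2 and 3 of Maf.flox. The groups overlapped, replicate 3 was lowest in both, and Maf.flox replicate 1 stood above all other libraries. The highest library had 3.31 times the level of the lowest in Vil.Cre Maf.flox and 6.49 times in Maf.flox. The log2 fold change was -1.11 (SE 0.81, adjusted p = 0.578 by edgeR's quasi-likelihood test), and its 95% interval of -3.19 to 0.97 covers both a large fall and a rise. Without Maf.flox replicate 1 the value was -0.18.

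**Figure D1:**
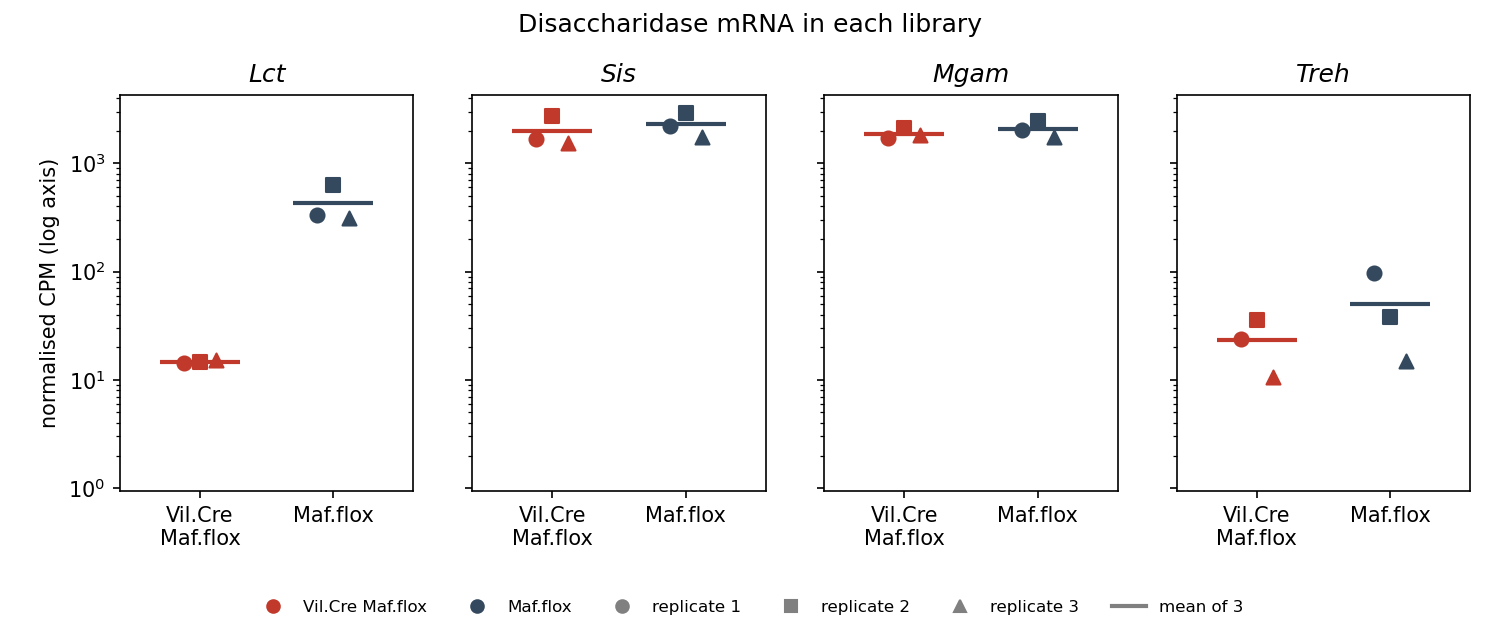
Normalised CPM (log axis) of the 4 disaccharidase genes in each library, Vil.Cre Maf.flox left and Maf.flox right, with the mean of 3 libraries as a line. The 3 Lct points of Vil.Cre Maf.flox lie between 14.4 and 15.2 CPM, far below the Maf.flox points at 313.5 to 628.5 CPM, while the points of Sis, Mgam and Treh overlap between the groups.

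Levels of different genes were compared per length, as FPKM (fragments scaled to gene length and library size). In Vil.Cre Maf.flox, Sis stood highest at 266.3 ± 87.1 FPKM, Mgam followed at 216.1 ± 24.0, Treh was at 11.4 ± 6.01 and Lct was lowest at 2.30 ± 0.075 FPKM (SD, n = 3 each). In Maf.flox the level of Sis was 306.8 ± 78.7 FPKM, of Mgam 237.4 ± 38.1, of Lct 66.1 ± 26.8 and of Treh 24.4 ± 20.8 FPKM (SD, n = 3 each). The means of Sis and Mgam lay within their spread of each other in both groups. Within libraries, Sis was above Mgam in 2 of 3 Vil.Cre Maf.flox libraries and in 3 of 3 Maf.flox libraries. The FPKM ratio of Sis to Mgam was 1.16, 1.51 and 0.979 in replicates 1, 2 and 3 of Vil.Cre Maf.flox and 1.27, 1.41 and 1.16 in replicates 1, 2 and 3 of Maf.flox. Lct and Treh changed places: Lct was below Treh in all 3 Vil.Cre Maf.flox libraries and above it in all 3 Maf.flox libraries.

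As a share of the summed FPKM of the 4 genes, Lct made up 0.515%, 0.361% and 0.563% in replicates 1, 2 and 3 of Vil.Cre Maf.flox, against 8.33%, 12.4% and 9.92% in replicates 1, 2 and 3 of Maf.flox. The groups were far apart. Sis took 53.0 ± 4.92% of the sum in Vil.Cre Maf.flox and 48.2 ± 1.47% in Maf.flox, and Mgam took 44.3 ± 5.52% in Vil.Cre Maf.flox and 37.8 ± 2.87% in Maf.flox (SD, n = 3 each). The summed level of the 4 genes was 496.1 ± 114 FPKM in Vil.Cre Maf.flox and 634.7 ± 146 FPKM in Maf.flox (SD, n = 3 each), a difference of about the size of the spread.

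**Figure D2:**
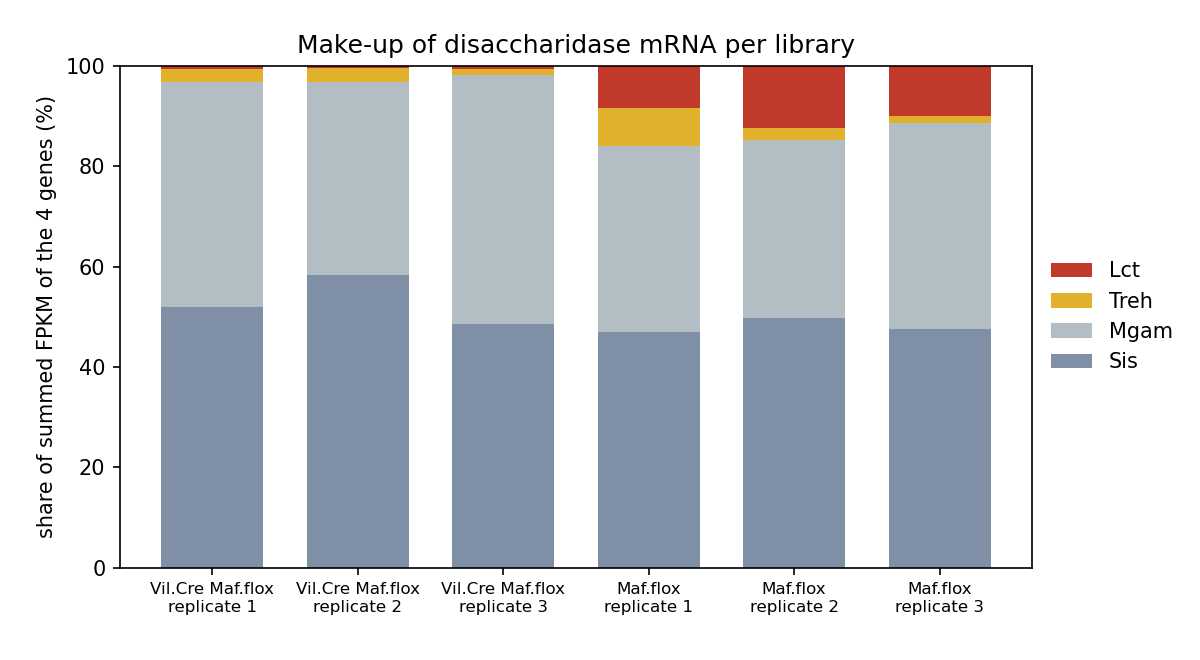
Share of each gene in the summed FPKM of the 4 disaccharidase genes (percent), one bar per library, Vil.Cre Maf.flox left. Lct fills 0.361 to 0.563% of the bar in Vil.Cre Maf.flox and 8.33 to 12.4% in Maf.flox.

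Ratios between genes within a library do not depend on how libraries are scaled. The log2 FPKM ratio of Lct to Sis was -6.81 ± 0.469 in Vil.Cre Maf.flox and -2.26 ± 0.246 in Maf.flox (SD, n = 3 each), a difference of -4.55. Against Mgam the difference was -4.64 and against Treh it was -3.91. Against Vil1, the gene of the microvillus protein villin, the ratio of Lct was -7.98 ± 0.274 in Vil.Cre Maf.flox and -3.58 ± 0.482 in Maf.flox (SD, n = 3 each), a difference of -4.40. For these 4 ratios every Vil.Cre Maf.flox library lay below every Maf.flox library.

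Relative to Vil1, the other disaccharidases showed no such gap. The difference in the log2 ratio to Vil1 was 0.15 for Sis, 0.24 for Mgam and -0.49 for Treh, and each of these overlapped between the groups. The Treh difference was 0.082 without Maf.flox replicate 1. An exact two-sided permutation test over the 6 libraries, 3 against 3, cannot go below 0.1, the value it gave for each of the 4 Lct ratios (0.175 after Benjamini-Hochberg adjustment over the 7 ratios). The same exact test gave 0.5 for Sis, 0.2 for Mgam and 0.5 for Treh against Vil1. Vil1 itself averaged 2077 ± 348 CPM in Vil.Cre Maf.flox and 2718 ± 546 CPM in Maf.flox (SD, n = 3 each), with a log2 fold change of -0.39 that did not pass (adjusted p = 0.373 by edgeR's quasi-likelihood test).

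**Figure D3:**
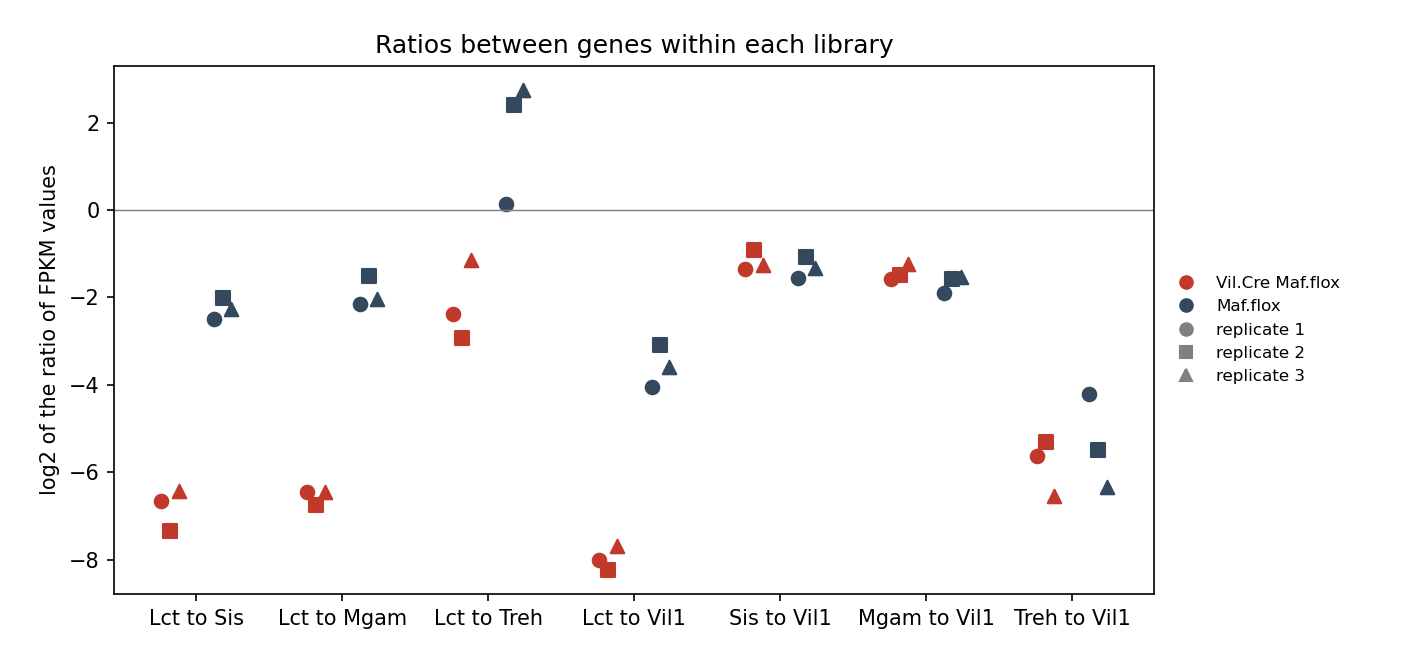
Log2 of the FPKM ratio between 2 genes in each library, with Vil.Cre Maf.flox points left of Maf.flox points for each ratio. All ratios with Lct on top lie lower in every Vil.Cre Maf.flox library, whereas the ratios of Sis, Mgam and Treh to Vil1 overlap.

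The genes next to Lct were not called. Mcm6, a subunit of the replicative helicase that lies 3.27 kb beyond the Lct start, had 105.5 ± 12.8 CPM in Vil.Cre Maf.flox and 109.9 ± 21.5 CPM in Maf.flox (SD, n = 3 each). Its log2 fold change was -0.06, with a 95% interval of -0.41 to 0.29. On the other side Ubxn4, 5.38 kb away, had 78.5 ± 7.4 CPM in Vil.Cre Maf.flox and 79.7 ± 4.29 CPM in Maf.flox (SD, n = 3 each). The next genes outward, R3hdm1 and the aspartyl-tRNA synthetase gene Dars, had log2 fold changes of -0.07 and 0.11. By edgeR's quasi-likelihood test these 4 genes had adjusted p from 0.658 to 0.946.

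**Figure D4:**
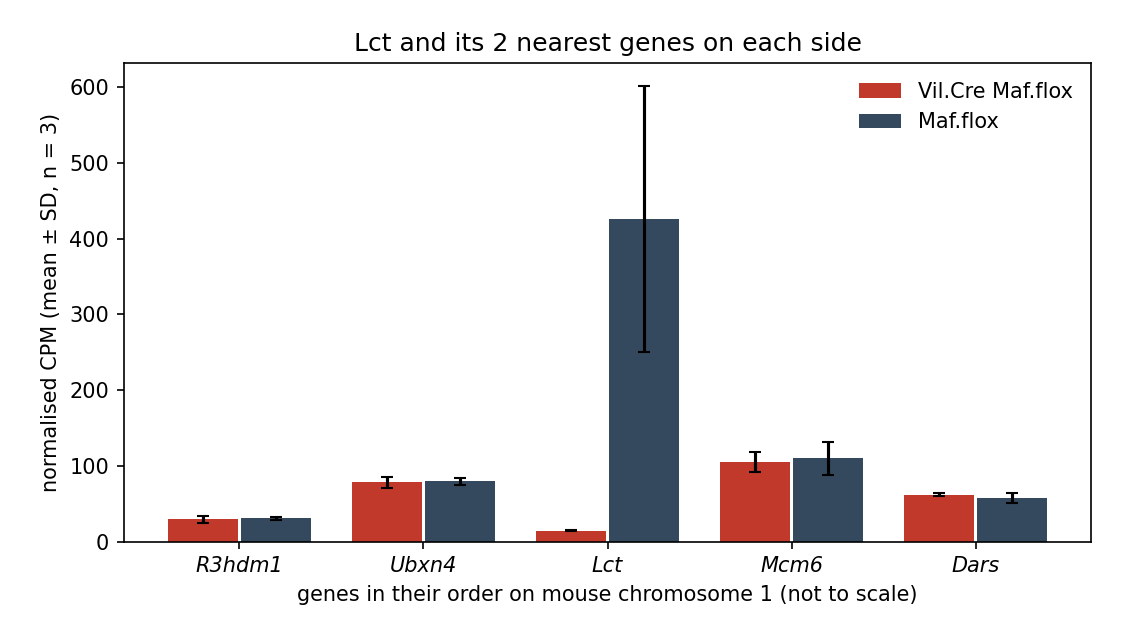
Mean normalised CPM with SD (n = 3 libraries each) of Lct and its 2 nearest genes on each side in the deposited table, in chromosomal order, Vil.Cre Maf.flox left of Maf.flox. The Lct bars stand at 14.7 CPM in Vil.Cre Maf.flox and 425.8 CPM in Maf.flox, and none of the 4 neighbours was called.

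Neighbours of the other 3 genes were not called either. The nearest gene to Sis in the table with counts enough to test was the butyrylcholinesterase gene Bche, 668 kb away, with a log2 fold change of -0.30. On the other side Sptssb, 3029 kb away, had 0.10 on 86 counts in all. Both lie much farther off than the neighbours of Lct. Ssbp1, which encodes a mitochondrial single-stranded DNA-binding protein and lies 144 kb from Mgam on the far side from Mgam2-ps, had 0.33. Phldb1, whose end meets that of Treh on the opposite strand, had -0.08, and the coatomer gene Arcn1, 55.3 kb from Treh, had 0.12. The remaining neighbours, Gm37784, Wdr49, Tas2r138, Gm2719, BC049987, Gm3953 and Gm48562, had between 2 and 10 counts over all libraries and were not tested.

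The genes with a pattern most like that of Lct were found by the root mean square difference of mean-centred log2 CPM over the 6 libraries. They were Slc5a12, a sodium-coupled lactate and monocarboxylate transporter (0.472), the amino acid transporter gene Slc7a15 (0.5) and Npl, which encodes a lyase of sialic acid breakdown (0.657). Slc5a12 averaged 1.05 ± 0.6 CPM in Vil.Cre Maf.flox and 34.2 ± 16.1 CPM in Maf.flox (SD, n = 3 each). Slc7a15 averaged 2.10 ± 0.626 CPM in Vil.Cre Maf.flox and 55.7 ± 26.2 CPM in Maf.flox (SD, n = 3 each), and overlaps a gene on the other strand. Since likeness was measured over the same libraries, the size of these falls is set by that choice.

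Sis was most like Smim24 (0.107), Hist1h2ac (0.118) and B3gnt3 (0.132), and Mgam was most like Elmod3 (0.04), Arhgap27os2 (0.047) and Gm48529 (0.057). Treh was most like Gm2061 (0.246), 1700016C15Rik (0.25) and Tgm5 (0.313). None of these 9 genes was called. Genes with a nearly flat pattern have many close matches, so the small distances of Sis and Mgam single out no partner.

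Relatives of the disaccharidases in the glycoside hydrolase families were not called. Of 9 listed genes 5 were tested and 0 were called by edgeR. An unadjusted p below 0.05 was found for 1 of the 5, the alpha-glucosidase gene Ganc (log2 fold change -0.47), and for 16.4% of all genes. Ganab, the glucosidase of the endoplasmic reticulum, had a log2 fold change of 0.22 and Galc, a lysosomal galactosidase, one of 0.11. Lctl, the closest relative of Lct by name, had 3 counts over all libraries. Glb1, the lysosomal beta-galactosidase, averaged 81.4 ± 10.04 CPM in Vil.Cre Maf.flox and 85.3 ± 2.39 CPM in Maf.flox (SD, n = 3 each), a log2 fold change of -0.07 that did not pass.

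Among the transporters that carry the released sugars the called genes were all lower. Of 8 sugar transporter genes, 2 were called lower and 0 higher, against 0.357% and 0.189% of all genes tested. Log2 fold changes were below 0 in 7 of the 8 (51.6% of all genes), and the median was -1.41 against -0.01 over all genes tested. In 7 of the 8 the groups did not overlap and Vil.Cre Maf.flox was lower, against 10.5% of all genes. Slc2a2, which encodes the GLUT2 glucose, galactose and fructose transporter, fell to 3.03 ± 0.637 CPM in Vil.Cre Maf.flox, against 23.1 ± 12.7 CPM in Maf.flox (SD, n = 3 each). Slc5a11, a sodium-coupled inositol and glucose transporter, fell to 26.8 ± 6.33 CPM in Vil.Cre Maf.flox, against 70.3 ± 16.5 CPM in Maf.flox (SD, n = 3 each). Their log2 fold changes were -2.93 and -1.39, at adjusted p = 0.0457 and 0.0472 (edgeR's quasi-likelihood test). Slc5a1, the apical SGLT1 carrier of glucose and galactose, named here after its values were seen, had 501.0 ± 87.8 CPM in Vil.Cre Maf.flox and 1057 ± 300 CPM in Maf.flox (SD, n = 3 each), and did not pass (log2 fold change -1.08, adjusted p = 0.0795 by the same edgeR test).

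Of 7 genes of fructose and galactose metabolism 0 were called by edgeR, and the median log2 fold change was -0.06. The fructokinase gene Khk had a log2 fold change of -0.70 and an unadjusted edgeR p below 0.05, as had 16.4% of all genes tested. Among genes of galactose breakdown, which handle a sugar that lactase releases, the galactokinase Galk1 and the uridylyltransferase Galt had values of -0.03 and 0.11, and the mutarotase Galm one of -0.40. Of 5 sugar-sensing genes 4 were tested and 0 called by edgeR: the ChREBP gene Mlxipl had a log2 fold change of -0.34, Txnip -0.37 and the sweet and savoury taste receptor subunit Tas1r3 -0.04, and of these Txnip had an unadjusted p below 0.05.

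The calls on sugar genes changed when a library was left out. Over these transporter and metabolism genes the 2 calls became 0 when any 1 of the 3 Vil.Cre Maf.flox libraries was left out, 1 without Maf.flox replicate 1 or replicate 2, and 6 with Maf.flox replicate 3 left out, while Lct was called in each of these fits.

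Enterocyte markers were set beside these genes. Of 8 such markers, among them genes of apolipoproteins and fatty acid-binding proteins, 0 were called by edgeR, 7 had log2 fold changes below 0 (51.6% of all genes did), and the median was -1.11. In 3 of the 8 the groups did not overlap and Vil.Cre Maf.flox was lower, against 10.5% of all genes. An unadjusted edgeR p below 0.05 was found for Alpi, Fabp1, Fabp2, Apoa1, Apoa4 and Apob, but not for Vil1 and Krt20. Over all genes tested the share was 16.4%. Fabp2, the intestinal fatty acid-binding protein, had a log2 fold change of -2.11, which did not pass (adjusted p = 0.0795 by edgeR's quasi-likelihood test). The alkaline phosphatase gene Alpi is in this list and in that of the other brush border hydrolases. The markers summed to 7521, 9049 and 5680 CPM in replicates 1, 2 and 3 of Vil.Cre Maf.flox, against 18955, 17274 and 8087 CPM in replicates 1, 2 and 3 of Maf.flox. The sums overlapped through Maf.flox replicate 3, and the other Maf.flox libraries lay above all 3 Vil.Cre Maf.flox libraries. The part of these markers in the values of Lct, the transporters and the other brush border hydrolases was not tested.

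Other hydrolases of the brush border, mostly peptidases, were set beside Lct. Of 15 such genes 14 were tested, and all 14 had log2 fold changes below 0 (51.6% of all genes did), with a median of -1.24. In 9 of the 14 the groups did not overlap and Vil.Cre Maf.flox was lower, against 10.5% of all genes. By edgeR 3 of the 14 were called lower, against 0.357% of all genes tested. These were the aminopeptidases Anpep (-2.36) and Xpnpep2 (-1.67) and the peptidase Ace (-3.18). Xpnpep2 averaged 167.9 ± 33.2 CPM in Vil.Cre Maf.flox and 532.6 ± 136 CPM in Maf.flox (SD, n = 3 each). The 95% interval of Lct, -5.56 to -4.15, lay wholly below the value of each of the 14, the lowest being that of Ace, while Sis and Mgam lay closer to 0 than any of them. These differences between genes were not tested beyond the ratios above. Of 11 genes of microvillus structure 0 were called by edgeR, and the median was -0.41. Ezr, Myo7b and Pls1, with log2 fold changes of -0.95, -0.51 and -0.73, had an unadjusted p below 0.05, as did Cdhr2. Among all genes tested the share with such a p was 16.4%.

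**Figure D5:**
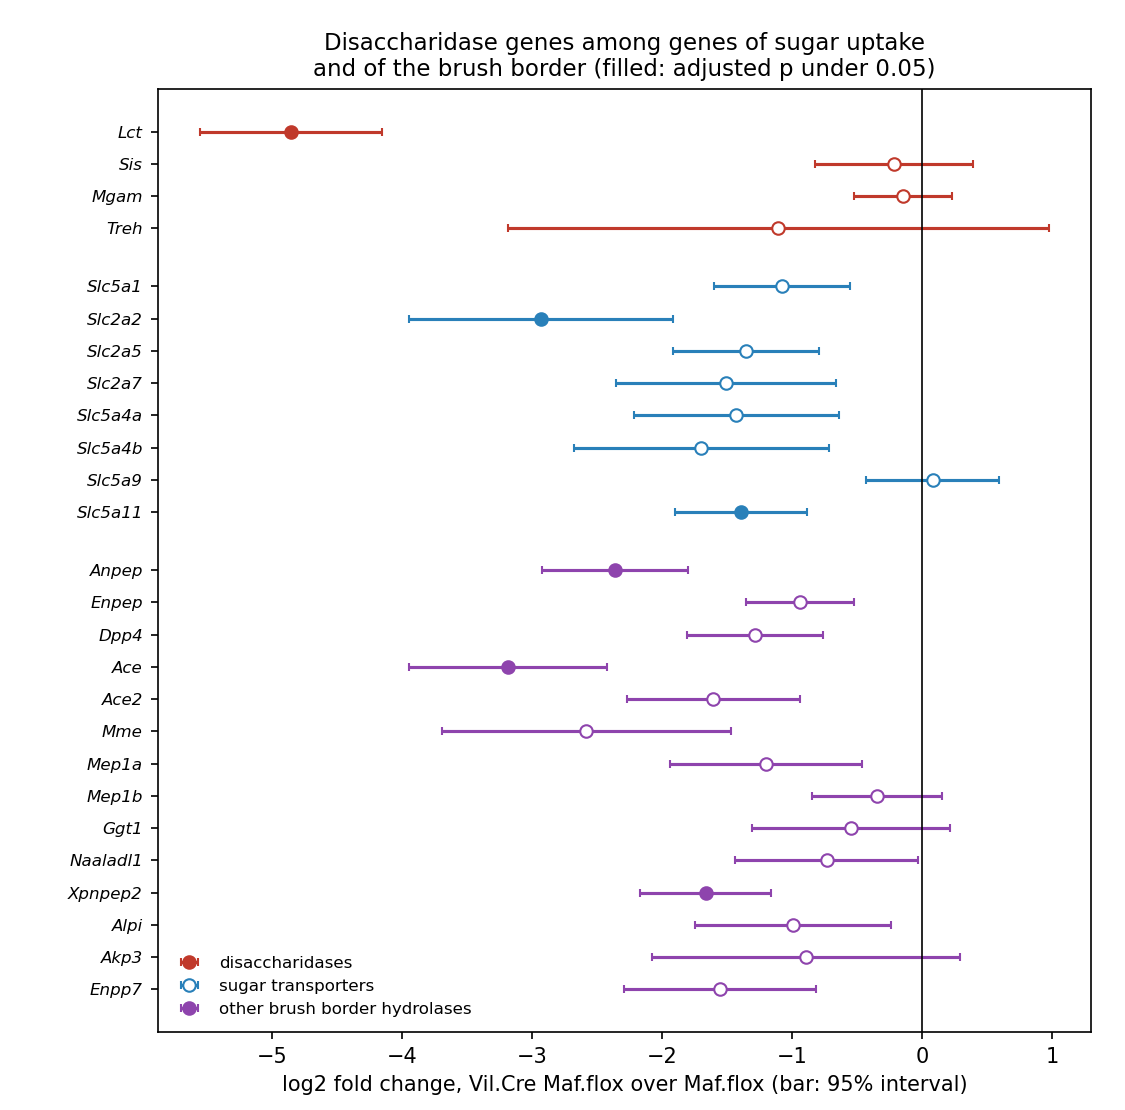
Log2 fold change of Vil.Cre Maf.flox over Maf.flox with its 95% interval for the tested disaccharidase, sugar transporter and other brush border hydrolase genes, with filled points where the adjusted p was below 0.05. Lct lies at -4.86, left of every other gene, and Sis and Mgam lie near 0 at -0.21 and -0.15.

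Transcription factors known to act on disaccharidase promoters were not called. Of 18 listed genes 16 were tested, 0 were called by edgeR, and log2 fold changes lay between -0.44 and 0.27 with a median of -0.10. Hnf4g, a nuclear receptor of enterocytes, had a value of -0.44, Gata5 -0.36 and Gata6 -0.23. Of the 16 genes Hnf4g and Gata5 had an unadjusted p below 0.05 by edgeR, a share below the 16.4% of all genes tested. Cdx2 had 306.3 ± 17.5 CPM in Vil.Cre Maf.flox and 347.3 ± 17.5 CPM in Maf.flox (SD, n = 3 each), a log2 fold change of -0.18. Gata4 had a value of -0.10. Pdx1 and Onecut2, factors of the proximal intestine, had 14 and 34 counts over all libraries and were not tested. Cdx2 and Gata4 were named after their values were seen.

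Genes that mark the suckling and the adult enterocyte were compared because Lct belongs to the suckling programme. Of the 5 suckling-stage genes other than Lct, 4 were tested and 0 called by edgeR. The neonatal Fc receptor gene Fcgrt had a log2 fold change of 0.36 and the argininosuccinate synthase gene Ass1 a value of 0.39. The repressor gene Prdm1, which marks the suckling epithelium, had a value of 0.27. Prdm1 was low, at a mean of 1.83 CPM in Vil.Cre Maf.flox and 1.52 CPM in Maf.flox, and its groups overlapped. Glb1, also in this list, lay below 0 at -0.07. Only Fcgrt among these 4 had an unadjusted edgeR p below 0.05. Of the 4 adult-stage genes, which include Sis and Treh, 0 were called by edgeR. Slc2a5, the fructose transporter gene, stood at -1.36 and the arginase gene Arg2 at -0.29, and Slc2a5 alone had an unadjusted p below 0.05. For both lists, the share with such a p over all genes tested was 16.4%.

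Other cell types and gut regions were measured beside these results, and their part in the fall of Lct was not tested. Distal small-intestinal genes, led by the ileal bile acid-binding protein Fabp6, summed to 6357 to 12903 CPM in Vil.Cre Maf.flox and 5991 to 11022 CPM in Maf.flox, and 6 proximal genes summed to 128.4 to 165.4 CPM in Vil.Cre Maf.flox and 111.2 to 155.4 CPM in Maf.flox. Both ranges overlapped, but the proximal sum joins genes with values of either sign: of 5 proximal genes tested 0 were called by edgeR and 4 lay below 0, with log2 fold changes from -1.46 for Fabp1 to 1.04 for the iron exporter gene Slc40a1. Paneth cell genes summed to 5838 to 8650 CPM in Vil.Cre Maf.flox and 4309 to 27349 CPM in Maf.flox, with the top value in Maf.flox replicate 3. Goblet cell genes summed to 14055 to 26554 CPM in Vil.Cre Maf.flox and 14082 to 32747 CPM in Maf.flox, and enteroendocrine genes to 233.3 to 476.6 CPM in Vil.Cre Maf.flox and 263.7 to 666.3 CPM in Maf.flox. Stem and cycling genes summed to 1823 to 2568 CPM in Vil.Cre Maf.flox and 1968 to 2861 CPM in Maf.flox. Tuft cell genes summed to 13.7 to 15.1 CPM in Vil.Cre Maf.flox and 16.4 to 65.8 CPM in Maf.flox, with no overlap. Maf.flox replicate 3 also had the lowest enterocyte sum of its group, and without it the log2 fold change of Lct was -5.03.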

How the data were processed

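The submitters' processing notes name the aligner HISAT2 2.0.5, the counter featureCounts 1.5.0-p3, DESeq2 and the build GRCm38 (mm10); strand settings are not given in the sources used here. The authors deposited whole-number counts, not normalised, and FPKM values. A deposited FPKM is a count over gene length and over a library size that was 0.953 to 1.07 times the summed counts.

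Counts were tested with edgeR 4.0.16 (R 4.3.3): filterByExpr with a least count of 10, TMM scaling, genotype as the only term, the robust quasi-likelihood F test and Benjamini-Hochberg adjustment over 13740 genes, with 0.05 as threshold. Standard errors are the log2 fold change divided by the root of F, and 95% intervals use the t distribution. CPM is TMM-normalised; at 1 CPM a library has 17.0 to 23.8 counts. Likeness used log2 CPM with a prior count of 2. FPKM served for ratios, by an exact permutation test, and no pseudocount was needed. The tests were checked on simulated counts.

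Alternatives were DESeq2 1.42.0, limma-voom 3.58.1, other scalings and filters, sex as a covariate, the replicate number as a block, and fits without each library in turn. The genes and lists were chosen with earlier results of these data known. Genes were named by a rule: the 4 members, the called genes of each list or else its 3 smallest p, the 3 most alike genes and 2 neighbours a side; some genes that the rule names are not reported here. No library was a copy of another: within groups, pairs differed by a chi-square of 32.9 to 119 per gene.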

Additional observations from a re-analysis of the deposited data

How the results depend on the processing

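The fall of Lct was called in each of the 14 alternative fits, with log2 fold changes from -5.03 to -4.45 and adjusted p up to 0.0403, reached without Vil.Cre Maf.flox replicate 3. Mgam and Treh stayed below 0 and uncalled in all 14, with ranges of -0.25 to -0.01 and -1.54 to -0.18, and Sis was uncalled in all 14, with values from -0.50 to 0.0085, the last without Maf.flox replicate 2. The ratio of Treh to Vil1 ran from -0.98 to 0.082 with 1 library left out, the last without Maf.flox replicate 1. The other 6 ratios kept their direction with any 1 library left out, and none could pass at this size. The remaining alternatives for ratios, counts over gene length and a block by replicate number, cannot change the difference in a ratio. Against 49 genes called lower over all genes and 2 sugar genes, there were 214 and 4 with no filter, 477 and 8 with DESeq2, 21 and 0 with limma-voom, and 23 and 0 with sex as a covariate; the cause was not tested. With 1 library left out the counts ran from 2 to 577 genes and from 0 to 6 sugar genes. Libraries that share replicate number 1, 2 or 3 had deviations from their group means that correlated at 0.092, -0.026 and 0.27, and Vil.Cre Maf.flox replicate 2 correlated best with Maf.flox replicate 1 (0.33), so the numbers were not used as pairs. A replicate block gave 308 genes lower and 8 sugar genes, with Lct at -4.77, and changed no call among the 4 disaccharidases. At 10 counts or fewer over all libraries, as for several neighbouring genes, no difference could be seen.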
